A study of Mus musculus with 8 samples.

Results

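A set of 10 genes of amino acid supply and of the transcriptional response led by ATF4 was followed across 4 groups of mouse germinal centre B cells. They were taken by symbol from the deposited table: the transporter genes Slc7a5, Slc3a2, Slc7a1, Slc1a4, Slc1a5 and Slc38a2, the asparagine synthetase gene Asns, and the stress regulators Atf4, Ddit3 and Trib3. All 10 were found among 23234 gene symbols, and all 10 were among the 10610 genes tested (at least 1 FPKM in at least 2 libraries). FPKM divides the fragments of a gene by its transcript length in kilobases and by the library's mapped fragments, so levels can be compared between genes.

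The donor cells came from C57BL/6 mice and carried a knocked-in B1-8hi antigen receptor gene, which recognises the hapten NP, as B1-8hi(KI/+), and a tamoxifen-activated recombinase as ERT2cre(KI/+). All donors were also Prdm1(f/f), so loss of Prdm1 (Blimp1, a plasma cell regulator) is shared by every group, controls included. Donors with Bach2(+/+) are called sKO and donors with Bach2(f/f) are called dKO, where Bach2 encodes a repressor that holds back plasma cell genes. Naive donor B cells were moved into wild-type CD45.1/45.2 recipients, whose own cells keep both genes, and tamoxifen was given at 3 mg for 3 days before NP-CGG/alum was injected on day 0. Spleens of 5 recipients were pooled on day 10, and NP-binding GL7+ CD38- donor cells were sorted as light zone cells (LZ, CD86 high and CXCR4 low) or dark zone cells (DZ, CD86 low and CXCR4 high). The 2 genotypes and 2 zones gave 4 groups of 2 libraries. The promoter that drives the recombinase and the age of the mice were not given in the sources used here, nor was it stated that replicates were separate pools, so p-values cover only the spread from library to library, which may be technical.

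When amino acids run short or unfolded protein builds up, kinases phosphorylate the initiation factor eIF2, most translation slows, and the mRNA of ATF4 is translated better. ATF4 then switches on genes for amino acid uptake, amino acid synthesis and tRNA charging, largely through a composite C/EBP and ATF site, and its control is mostly at translation, so its own mRNA level is a weak measure of its activity. The kinase mTORC1 can also raise ATF4 translation, and it senses amino acids that the LAT1 transporter brings into the cell. LAT1 is a heterodimer of the light chain encoded by Slc7a5 and the heavy chain CD98 encoded by Slc3a2. The title of the series names mTORC1 in the germinal centre, where LZ cells that receive T cell help start to grow before they return to the DZ.

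Promoter windows from RefSeq (GRCm38.p6, 250 bases before to 50 after each start) were matched for 8 of the 10 genes in 9 windows, and Slc1a5 and Slc7a5 were unmatched. These coordinates belong to that build and not to mm9, which the submitters named. Both strands were searched for TGATGNAA, the core of the C/EBP and ATF site, for the MYC-type E-box CACGTG and for TGANTCA, the core shared by AP-1 and BACH factors; no letters of these motifs overlapped in a window shown. TGATGNAA was in the windows of 3 genes, Asns, Slc1a4 and Trib3, and in 3.97% of all 32851 windows. The matches are shown because ATF4 is known to bind such sites, with the matched letters in capitals.
Asns, chr6:7693214-7693243, minus strand, match from -23 to -16: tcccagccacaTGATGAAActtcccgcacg
Slc1a4, chr11:20332699-20332728, minus strand, match from -4 to 4 on the opposite strand: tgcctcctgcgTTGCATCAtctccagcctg
Trib3, chr2:152344028-152344057, minus strand, match from 15 to 22 on the opposite strand: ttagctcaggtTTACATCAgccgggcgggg

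Positions count from the annotated start, with negative numbers before it and no position 0. The 100 bases before the Asns start (chr6:7693210-7693309, minus strand) show the same match in its place.
Asns upstream: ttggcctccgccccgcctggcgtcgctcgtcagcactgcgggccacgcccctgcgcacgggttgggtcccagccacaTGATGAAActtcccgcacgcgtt

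TGANTCA was in the windows of Slc7a1 and Ddit3 and in 7.81% of all windows, and CACGTG was in 0 of the 9 windows and in 7.15% of all windows. The TGANTCA matches are shown because BACH2 is the factor deleted in dKO. A match describes letters and is not a measured binding site.
Slc7a1, chr5:148400009-148400038, minus strand, match from -123 to -117: gccatcagctcTGACTCAagctcagttgcg
Ddit3, chr10:127290543-127290569, plus strand, match from -242 to -236: cgcgcgcaTGACTCActcacctcctcc

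FPKM summed to 502214 to 540885 per library. Absolute depth is unknown from FPKM, and the steps between low values put the DZ libraries at 1.41 to 1.62 and the LZ libraries at 1 to 1.10 times the depth of sKO LZ replicate 1. The sort matched its labels at the RNA level, with Cd86 at 77.4 to 106 FPKM in LZ and 31.2 to 38.4 in DZ libraries and Cxcr4 at 73.5 to 78.3 and 129 to 139. All 9 germinal centre B cell markers were tested, and their FPKM summed to 3284 to 4206 per library. Bach2 was at 49.8 and 53.4 FPKM in sKO LZ, 64.5 and 62.7 in dKO LZ, 76.2 and 74.6 in sKO DZ and 96.2 and 94.5 in dKO DZ. It was thus higher in the libraries labelled dKO in both zones, the opposite of a lost transcript. The sources used here do not name the exon removed and the other exons still count, so the FPKM of Bach2 does not check the dKO label, and every genotype comparison rests on the labels. Myeloid marker RNA differed between libraries: the 9 markers summed to 18.2 and 66.0 FPKM in sKO LZ, 29.0 and 153 in dKO LZ and 5.40 to 9.30 in DZ libraries, whereas the 8 T cell markers summed to at most 1.78 and the 6 NK cell markers to at most 2.79. Mean Mpeg1, the largest part of each myeloid sum in DZ, was lower in dKO than in sKO. It went from 12.6 to 7.95 FPKM in LZ and from 6.56 to 4.05 in DZ. The 6 erythroid markers summed to 25.5 to 35.9 FPKM in LZ libraries and 16.7 to 22.5 in DZ libraries. In bulk RNA, fewer cells of a type and less RNA per cell cannot be told apart.

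In LZ cells, 5 of the 10 genes rose in dKO over sKO, namely Asns, Slc1a4, Slc7a5, Slc3a2 and Slc7a1, and 0 fell (limma, adjusted p under 0.05). At an unadjusted p under 0.05, 7 were higher and 0 lower. Slc1a4, and Trib3 among the 7, passed the filter on low values through dKO libraries. With a filter of 5 FPKM, 4 of 8 genes tested passed the adjusted threshold, without Slc1a4. Asns had the largest fitted change, with a mean FPKM 1.99 times that of sKO, and Slc1a4 had the highest ratio, 2.73. The glutamine transporters Slc1a5 and Slc38a2 and the regulators Atf4, Ddit3 and Trib3 did not pass. Of all genes tested, 18.4% rose and 12.7% fell in the same comparison. The median change of the 10 genes was 0.29 and that of all genes tested was 0.022 (differences of log2(FPKM + 1), a scale that understates changes of low genes). In DZ cells, 1 of the 10 rose, Slc7a5, and 0 fell, with 3 higher and 0 lower at an unadjusted p under 0.05. There the shares of all genes tested were 6.63% higher and 5.23% lower, and the medians were 0.059 for the 10 genes and 0.014 for all.

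**Figure D1:**
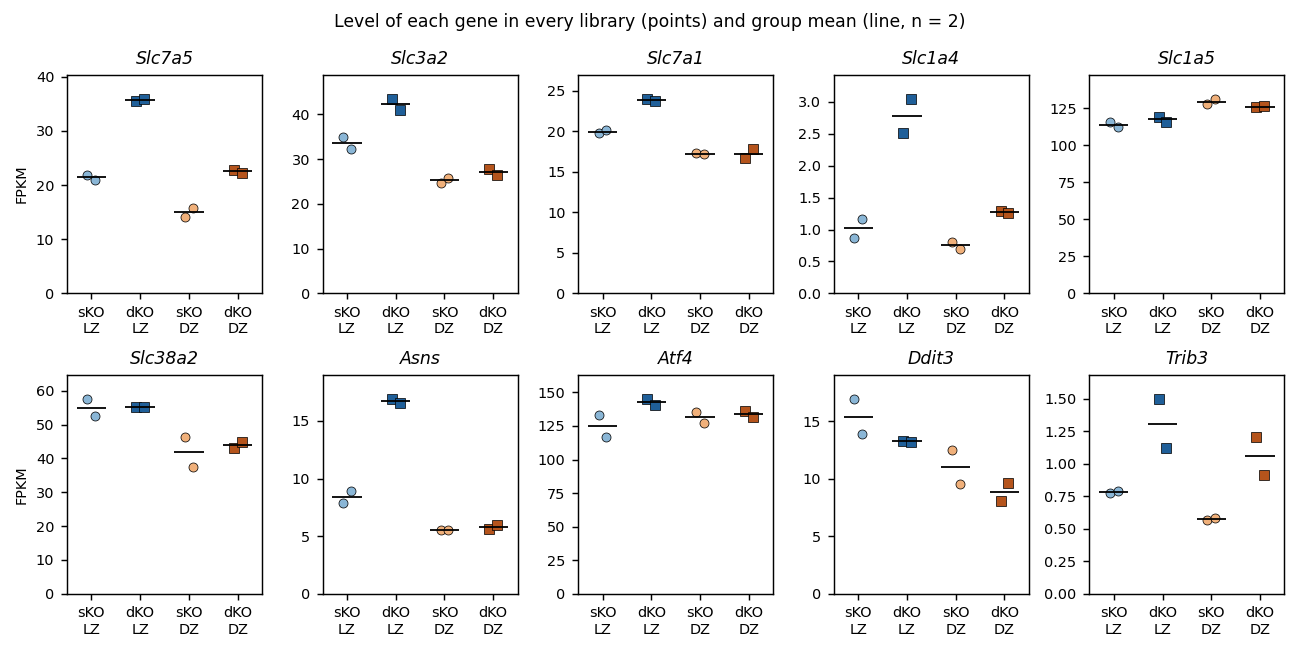
FPKM of the 10 genes in every library on axes that start at 0, with circles for sKO, squares for dKO, blue for light zone, orange for dark zone, and lines for the means of 2 libraries. Asns is at 16.6 and 16.9 in the dKO LZ libraries and at 5.56 to 8.96 in the other 6, whereas Slc1a5 and Atf4 stay between 112 and 145 throughout.

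Slc7a5 encodes the LAT1 light chain, which carries large neutral amino acids such as leucine. It was at 21.8 and 21.0 FPKM in sKO LZ, 35.6 and 35.9 in dKO LZ, 14.1 and 15.8 in sKO DZ, and 22.9 and 22.3 in dKO DZ. Both dKO libraries lay above both sKO libraries in each zone, and the dKO DZ libraries lay just above the sKO LZ libraries. The change was 0.71 ± 0.059 (SE) in LZ (adjusted p = 0.00102) and 0.57 ± 0.059 in DZ (adjusted p = 0.00537), and the DZ call was lost without dKO DZ replicate 1 (0.55, adjusted p = 0.0550). The order of the group means was dKO LZ (35.7), dKO DZ (22.6), sKO LZ (21.4) and sKO DZ (14.9), and the difference between the middle pair was not tested.

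The heavy chain gene Slc3a2 (CD98), which brings Slc7a5 and related light chains to the cell surface, was at 35.0 and 32.3 FPKM in sKO LZ and 43.5 and 41.1 in dKO LZ. In DZ it was at 24.8 and 25.8 in sKO and 27.8 and 26.5 in dKO. It rose in LZ by 0.32 ± 0.057 (adjusted p = 0.00797, and 0.0526 without dKO LZ replicate 1), and the DZ difference of 0.099 ± 0.057 did not pass (adjusted p = 0.320, 95% interval -0.038 to 0.24). The difference between the changes of the light and heavy chain genes was not tested. The ratio of Slc7a5 to Slc3a2 FPKM was 0.623 and 0.650 in sKO LZ, 0.570 and 0.611 in sKO DZ, 0.818 and 0.873 in dKO LZ and 0.822 and 0.840 in dKO DZ. The 4 dKO libraries were above the 4 sKO libraries, and the zones overlapped in dKO. This ratio was chosen after the values were seen and is given with no test.

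Slc7a1 encodes CAT1, the main carrier of cationic amino acids such as arginine and lysine. Its level was 19.8 and 20.1 FPKM in sKO LZ, 24.0 and 23.8 in dKO LZ, 17.3 and 17.2 in sKO DZ and 16.6 and 17.8 in dKO DZ. The dKO LZ libraries were the highest, and in DZ the genotypes overlapped. It rose in LZ by 0.25 ± 0.046 (adjusted p = 0.00921, and 0.0557 without dKO LZ replicate 1), and the DZ difference was -0.0024 ± 0.046 (95% interval -0.11 to 0.11).

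Slc1a4 encodes ASCT1, a carrier of alanine, serine and cysteine, and was a low-level gene here. It was at 0.868 and 1.17 FPKM in sKO LZ, 2.51 and 3.05 in dKO LZ, 0.801 and 0.703 in sKO DZ and 1.30 and 1.26 in dKO DZ. In each zone the dKO libraries were above the sKO libraries. Only 1 sKO library reached 1 FPKM, so Slc1a4 passed the filter on low values through the group where it was high. It rose by 0.90 ± 0.12 in LZ (adjusted p = 0.00287), and the DZ difference of 0.38 ± 0.12 did not pass (adjusted p = 0.0867), with mean FPKM ratios of 2.73 and 1.70.

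Its relative Slc1a5 (ASCT2), which exchanges glutamine and other neutral amino acids, was far more abundant and nearly flat. It was at 116 and 112 FPKM in sKO LZ, 119 and 116 in dKO LZ, 128 and 131 in sKO DZ and 126 and 126 in dKO DZ. The genotypes overlapped in LZ, whereas in DZ both sKO libraries were above both dKO libraries. The sign of the LZ difference turned with the scaling: it was 0.043 ± 0.037 as deposited (adjusted p = 0.415, 95% interval -0.045 to 0.13), -0.064 with quantile normalization and -0.016 with upper quartile scaling. The DZ difference was -0.039 ± 0.037 (95% interval -0.13 to 0.050).

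Slc38a2 encodes SNAT2, a sodium-coupled carrier of small neutral amino acids that is known to be induced by amino acid shortage. It was at 57.5 and 52.4 FPKM in sKO LZ, 55.2 and 55.1 in dKO LZ, 46.4 and 37.6 in sKO DZ and 43.1 and 44.7 in dKO DZ. The genotypes overlapped in both zones. The difference was 0.0053 ± 0.097 in LZ (95% interval -0.23 to 0.24; -0.054 with upper quartile scaling, -0.027 with median-ratio scaling and -0.078 with quantile normalization) and 0.070 ± 0.097 in DZ (95% interval -0.16 to 0.30).

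Asns encodes the enzyme that makes asparagine from aspartate and glutamine, a classical ATF4 target. It was at 7.88 and 8.96 FPKM in sKO LZ, 16.9 and 16.6 in dKO LZ, 5.56 and 5.56 in sKO DZ and 5.61 and 5.96 in dKO DZ. The dKO LZ libraries stood above all others, the sKO LZ libraries came next, and the 4 DZ libraries lay between 5.56 and 5.96. It rose in LZ by 0.91 ± 0.070 (adjusted p = 0.000918), and the DZ difference was 0.047 ± 0.070 (adjusted p = 0.724, 95% interval -0.12 to 0.21).

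Atf4 itself was abundant and varied little, at 133 and 117 FPKM in sKO LZ, 145 and 141 in dKO LZ, 136 and 127 in sKO DZ and 136 and 132 in dKO DZ. Both dKO LZ libraries were above both sKO LZ libraries, and the DZ genotypes overlapped. The LZ difference of 0.19 ± 0.068 missed the threshold (adjusted p = 0.0770) and passed without sKO LZ replicate 1 (0.28, adjusted p = 0.0196). In DZ the difference was 0.029 ± 0.068 (95% interval -0.13 to 0.19).

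Ddit3 encodes CHOP, a transcription factor of prolonged stress that ATF4 can induce. It was at 16.9 and 13.9 FPKM in sKO LZ, 13.3 and 13.2 in dKO LZ, 12.5 and 9.55 in sKO DZ and 8.11 and 9.64 in dKO DZ. In LZ both sKO libraries were above both dKO libraries, and in DZ the genotypes overlapped. The differences, -0.19 ± 0.15 in LZ (adjusted p = 0.358) and -0.28 ± 0.15 in DZ (adjusted p = 0.275), were opposite in sign to those of Asns and Slc7a5 and did not pass. In GENCODE M21, 68 of the 1713 exonic bases of Ddit3 are shared with exons of Mars on the other strand, and the library kit is not stated to keep strand.

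Trib3 encodes a pseudokinase that ATF4 and CHOP induce and that feeds back on ATF4. It was at 0.771 and 0.787 FPKM in sKO LZ, 1.50 and 1.12 in dKO LZ, 0.570 and 0.581 in sKO DZ and 1.21 and 0.914 in dKO DZ. In both zones the dKO libraries were above the sKO libraries. The differences of 0.37 ± 0.12 in LZ (adjusted p = 0.0578) and 0.38 ± 0.12 in DZ (adjusted p = 0.0925) missed the threshold, which the LZ difference passed without a variance trend (adjusted p = 0.0351). Trib3 reached 1 FPKM only in dKO libraries, so it passed the filter on low values through the group where it was high.

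**Figure D2:**
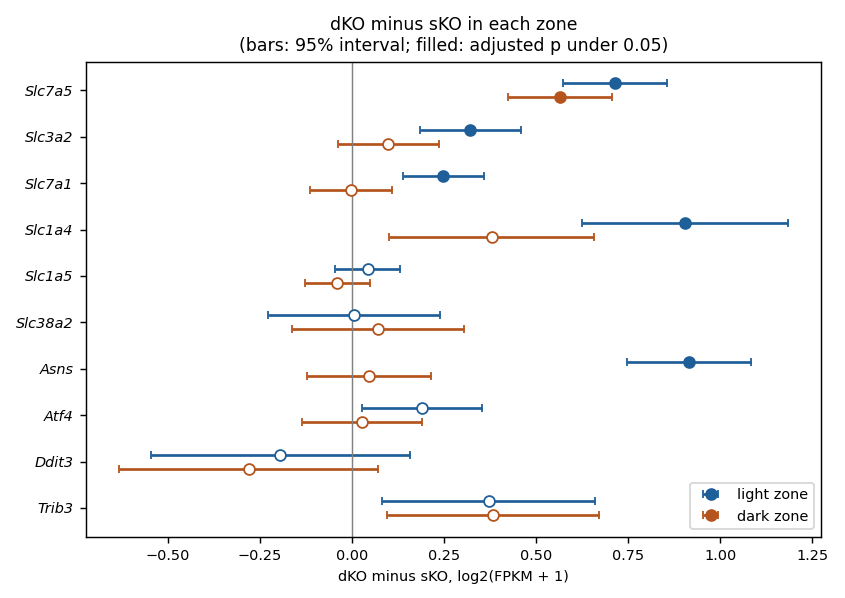
Difference dKO minus sKO of log2(FPKM + 1) in light zone (blue) and dark zone (orange) cells for each gene, with 95% intervals from limma and filled points past an adjusted p of 0.05. Asns lies at 0.91 in LZ and 0.047 in DZ, whereas Slc7a5 lies at 0.71 and 0.57.

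The genotype effect was compared directly between zones. The difference (LZ minus DZ) was largest for Asns among the 10 genes, at 0.87 ± 0.099 (95% interval 0.63 to 1.10, unadjusted p = 7.83e-05 from limma), and did not pass over all genes (adjusted p = 0.142). Slc1a4 had 0.52 ± 0.16, Slc7a1 0.25 ± 0.065 and Slc3a2 0.22 ± 0.080. Slc7a5, with 0.15 ± 0.083, and Trib3, with -0.012 ± 0.17, had intervals that include 0. Thus 0 of the 10 genes passed the adjusted threshold (limma) and 4 had an unadjusted p under 0.05. Only 3 of all genes tested (0.0283%) passed in this comparison. Over the mean of both zones, 6 of the 10 genes were higher in dKO and 0 lower (6 and 0 at an unadjusted p under 0.05), beside 37.2% of all genes tested in either direction. These were Asns, Slc7a5, Slc3a2, Slc1a4, Slc7a1 and Trib3 (0.38 ± 0.085, adjusted p = 0.0150). Slc1a4 and Trib3 passed the filter on low values through dKO libraries, and with a filter of 5 FPKM 4 of 8 genes tested passed. The Trib3 call was lost without dKO DZ replicate 1 (0.0543) or without both sKO libraries numbered 1 (0.0787). Atf4 (0.11 ± 0.048, adjusted p = 0.123) passed without sKO LZ replicate 1 (0.0230) and Ddit3 (-0.24 ± 0.10, adjusted p = 0.121) without sKO DZ replicate 2 (0.0459). The Slc7a1 call (0.12 ± 0.033, adjusted p = 0.0266) was lost in 6 of 8 fits that left out 1 library, all but those without sKO LZ replicate 2 or dKO DZ replicate 1 (adjusted p 0.0569 to 0.0930), and with the 3 other scalings (adjusted p 0.0626 to 0.119).

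RNA of other cells and of plasma cells is given beside these results. With 1 library left out, the lowest LZ difference was 0.83 for Asns, 0.80 for Slc1a4 and 0.69 for Slc7a5. For Slc3a2 and Slc7a1 it was 0.27 and 0.24. Of 6 plasma cell markers 3 were tested, and the 6 summed to 325 and 309 FPKM in sKO LZ, 368 and 368 in dKO LZ, 431 and 449 in sKO DZ and 460 and 472 in dKO DZ. Tnfrsf17 was listed at 0 in every library. Most of each marker sum was Igj, at 229 to 398 FPKM. Mean Irf4 went from 11.3 (sKO) to 12.9 (dKO) in light zone cells but from 3.53 down to 2.17 in dark zone cells. Mean Xbp1 went from 72.7 to 78.0 and from 75.6 down to 70.3, and neither difference passed (limma, adjusted p = 0.339 and 0.447). Sdc1 and Prdm1 were too low to be tested. Sdc1 was at 0.0666 and 0.0637 FPKM in sKO LZ and 0.606 and 0.505 in dKO LZ. Prdm1 was at 0.0577 and 0.0184 in sKO LZ and 0.980 and 0.967 in dKO LZ. The dark zone means of these genes were 0.0910 and 0.0848 for sKO, against 0.215 and 0.346 for dKO. The parts of myeloid and of plasma cell RNA in the higher level of the amino acid genes were not tested.

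Between zones, most of the carriers and Asns were higher in LZ than in DZ cells. In sKO, 5 of the 10 genes rose in LZ over DZ (Slc7a5, Asns, Slc3a2, Slc38a2 and Slc7a1) and 1, Slc1a5, fell, beside 15.2% and 16.1% of all genes tested. In dKO, 7 rose (Asns, Slc3a2, Slc7a5, Slc7a1, Slc1a4, Ddit3 and Slc38a2) and 0 fell, beside 18% and 16.1%, and at an unadjusted p under 0.05 the dKO counts were 7 and 1. The LZ and DZ libraries also differed in depth and in myeloid and erythroid marker RNA, as given above. The part of these in the zone differences was not tested. The zone and genotype comparisons share libraries, so they are set side by side and not as independent results.

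Asns differed by 0.52 ± 0.070 between zones in sKO (adjusted p = 0.00292) and by 1.39 ± 0.070 in dKO (adjusted p = 8.59e-05), with LZ to DZ ratios of mean FPKM of 1.51 and 2.89. For Slc7a5 the zone differences were 0.49 ± 0.059 in sKO and 0.64 ± 0.059 in dKO. For Slc3a2 they were 0.40 ± 0.057 and 0.62 ± 0.057, for Slc7a1 0.20 ± 0.046 and 0.45 ± 0.046, and for Slc1a4 0.20 ± 0.12 (adjusted p = 0.232) and 0.73 ± 0.12. Slc1a5 was the only carrier of the 6 with lower LZ than DZ levels in both genotypes, by -0.18 ± 0.037 in sKO (adjusted p = 0.0126) and -0.10 ± 0.037 in dKO (adjusted p = 0.0786, and 0.0240 with upper quartile scaling or 0.0327 with quantile normalization). The sKO calls of Slc1a5, Slc7a1 and Slc38a2 were all lost without sKO LZ replicate 2 (adjusted p 0.0532, 0.0747 and 0.0516) or sKO DZ replicate 2 (0.0561, 0.0784 and 0.0618), and Slc7a1 also without sKO DZ replicate 1 (0.0672) and Slc38a2 without sKO LZ replicate 1 (0.0975). With only the sKO libraries in the fit, Slc1a5, Slc7a1 and Slc38a2 had adjusted p of 0.0784, 0.0723 and 0.0805. Ddit3 in sKO (0.45 ± 0.15, adjusted p = 0.0586) passed without small RNA genes (0.0230) or without sKO DZ replicate 1 (0.0335). In dKO, the calls of Ddit3 (0.54 ± 0.15, adjusted p = 0.0315) and Slc38a2 (0.32 ± 0.097, adjusted p = 0.0440) were each lost without any 1 of the 4 dKO libraries (adjusted p 0.0544 to 0.154 and 0.115 to 0.170), and with no filter on low values (0.0640 and 0.0808). Slc38a2 in dKO was also lost with upper quartile scaling (0.0555), quantile normalization (0.0519) or no variance trend (0.0573), and in sKO with no filter (0.0515). Atf4 and Trib3 did not pass in either genotype.

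**Figure D3:**
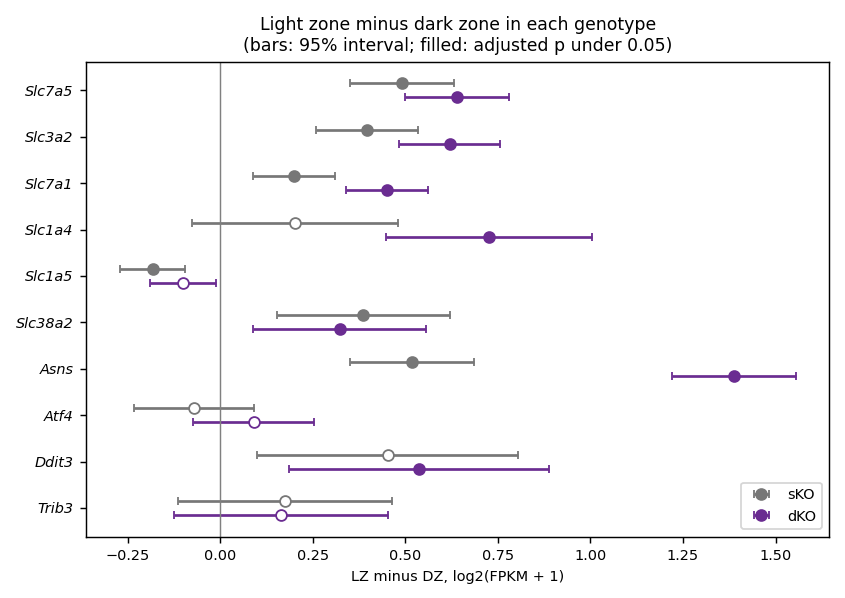
Difference LZ minus DZ of log2(FPKM + 1) in sKO (grey) and dKO (purple) for each gene, with 95% intervals from limma and filled points past an adjusted p of 0.05. The Asns points lie apart, at 0.52 in sKO and 1.39 in dKO, and Slc1a5 lies below 0 in both.

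Of 28 further amino acid carrier genes 15 were tested, and in LZ 4 rose and 2 fell in dKO, with a median of -0.056, where 18.4% of all genes tested rose and 12.7% fell. Slc43a1, which encodes the LAT3 carrier of large neutral amino acids, rose from 0.978 and 0.935 FPKM in sKO LZ to 3.55 and 3.84 in dKO LZ (1.26 ± 0.10, adjusted p = 0.00107) and from 1.15 and 1.33 to 3.34 and 2.68 in DZ (0.84 ± 0.10, adjusted p = 0.00821). Slc7a6, another light chain that pairs with CD98, rose by 0.31 ± 0.047 in LZ and 0.20 ± 0.047 in DZ. The lysosomal carrier genes Slc38a9, whose product senses arginine for mTORC1, and Pqlc2 fell in LZ by 0.39 and 0.32. Slc7a11, which encodes the cystine carrier xCT, and Slc36a4 were the other genes that rose in LZ (0.35 and 0.39; named after their values were seen). Only 2 of these carriers rose in LZ without either dKO LZ library or without sKO LZ replicate 2, and only 1 fell without replicate 2 of either LZ group. In DZ, 2 rose and 1 fell, beside 6.63% and 5.23% of all genes tested, and fewer rose with any 1 library left out. The calls of the genes that rose in DZ, Slc43a1 among them, were lost without dKO DZ replicate 1. The call of the gene that fell in DZ was lost without any 1 DZ library.

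Of 26 further ATF4 targets 20 were tested, of which 10 rose and 1 fell in dKO LZ cells, with a median of 0.39 (7 to 10 rose with 1 library left out). The shares of all genes tested were 18.4% and 12.7%. The 10 include the low-level genes Gpt2 and Gdf15. In LZ their mean FPKM went from 0.523 (sKO) to 1.28 (dKO) for Gpt2 and from 0.263 to 1.92 for Gdf15. Mean Gpt2 in dark zone cells was 0.291 (sKO) and 0.400 (dKO). Both genes thus needed dKO libraries to pass the filter on low values, so their being tested and their rise are linked. The serine and one-carbon genes Shmt2 and Psat1 went from 75.3 and 66.7 FPKM to 117 and 118 and from 65.5 and 66.8 to 95.4 and 98.5 (0.72 ± 0.063 and 0.54 ± 0.047). Mthfd2, a mitochondrial folate enzyme gene, and Xpot, the tRNA exporter gene, rose by 0.56 ± 0.061 and 0.46 ± 0.048 (adjusted p 0.00110 to 0.00184 over these 4 genes). The gene that fell was Ddit4 (REDD1, named after its value was seen), an inhibitor of mTORC1 that is also a target of glucocorticoid and hypoxia signalling, from 14.6 and 16.2 to 8.40 and 8.21 (-0.82 ± 0.10, adjusted p = 0.00271). In DZ, 6 rose and 1, again Ddit4 (-0.44 ± 0.10, adjusted p = 0.0416), fell, beside 6.63% and 5.23% of all genes tested. The Ddit4 call in DZ was lost in 6 of the 8 fits with 1 library left out, those without any DZ library or either dKO LZ library. Among the genes that rose, Gdf15, a stress-induced cytokine gene, went from 0.731 and 1.22 to 5.20 and 4.87 FPKM (1.62 ± 0.22, adjusted p = 0.00996). Only 1 sKO library reached 1 FPKM of Gdf15, so it passed the filter on low values through dKO libraries. In DZ, Xpot, Shmt2 and Mthfd2 rose by 0.41, 0.49 and 0.33.

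Of 12 cytosolic tRNA synthetase genes, which encode the enzymes that charge tRNAs and many of which ATF4 induces, 11 rose and 0 fell in dKO LZ cells, with a median of 0.43 (12 and 0 at an unadjusted p under 0.05), against 18.4% and 12.7% of all genes tested. Eprs went from 36.0 and 38.2 FPKM in sKO LZ to 51.5 and 53.0 in dKO LZ (0.48 ± 0.044, adjusted p = 0.00126). Nars, for asparagine, and Iars, for isoleucine, rose by 0.44 ± 0.040 and 0.51 ± 0.055. Wars, for tryptophan, had 0.22 ± 0.078 (adjusted p = 0.0765; named after its value was seen). In DZ, 7 rose and 0 fell with a median of 0.21 (10 and 0 at an unadjusted p under 0.05), against 6.63% and 5.23%. The number that rose in LZ was 10 to 12 with 1 library left out.

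The DZ counts of these lists depended on single libraries. Without dKO DZ replicate 1 or replicate 2, 112 and 137 genes passed in DZ over all genes tested, against 1258 with all libraries. The number of further ATF4 targets that rose in DZ was then 0 and 0, and without dKO DZ replicate 2 the number of tRNA synthetase genes that rose was also 0.

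Upstream of ATF4, 6 of 14 genes of eIF2 control rose and 1 fell in dKO LZ cells, with a median of 0.17, beside 18.4% and 12.7% of all genes tested. Eif2s1, which encodes the phosphorylated eIF2 subunit, rose by 0.36 ± 0.044, and Eif2b3 and Eif2b5, subunits of the eIF2B exchange factor that phosphorylated eIF2 blocks, rose by 0.44 ± 0.063 and 0.25 ± 0.041. Eif2ak3 (PERK), the kinase that responds to unfolded protein, fell from 34.0 and 30.5 FPKM to 24.1 and 23.7 (-0.42 ± 0.058, adjusted p = 0.00367). The other kinase genes were added after their values were seen. In LZ, Eif2ak2 (PKR) rose by 0.47 ± 0.096 (limma, adjusted p = 0.0128). Eif2ak4 (GCN2) had 0.16 ± 0.058 (adjusted p = 0.0742) and Eif2ak1 (HRI) -0.034 ± 0.050 (adjusted p = 0.647). In DZ, Eif2ak2 and Eif2ak4 rose by 0.55 ± 0.096 and 0.32 ± 0.058 (adjusted p = 0.0186 and 0.0199). Both DZ calls were lost without either sKO DZ library or without dKO DZ replicate 1. Of the branch genes of the unfolded protein response outside ATF4, 13 of 14 were tested, and 9 rose and 0 fell in LZ (9 and 0 at an unadjusted p under 0.05), with a median of 0.31 and the same shares of all genes. They included the chaperone genes Hsp90b1 (0.51 ± 0.033) and Calr (0.31 ± 0.034). Fewer of them rose without dKO LZ replicate 1. In DZ, 4 of the 13 rose and 2 fell, beside 6.63% and 5.23% of all genes tested. Herpud1 was among those that fell (-0.25 ± 0.038, adjusted p = 0.0137). All of these DZ calls, that of Herpud1 among them, were lost without dKO DZ replicate 1 or without replicate 2. The calls of the genes that fell were also lost without sKO DZ replicate 2.

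Of 15 tested genes that break down or convert amino acids, 5 rose and 5 fell in dKO LZ cells, with a median of 0.0057, beside 18.4% and 12.7% of all genes tested. Bcat1, the cytosolic branched-chain aminotransferase gene, rose from 2.24 and 2.30 FPKM to 5.35 and 5.55 (0.98 ± 0.067, adjusted p = 0.000887), and Got1, an aspartate aminotransferase gene, rose by 0.52 ± 0.063. The glutamine synthetase gene Glul fell from 49.4 and 49.6 to 36.3 and 36.9 (-0.43 ± 0.033), and Bckdhb, of the branched-chain ketoacid dehydrogenase, fell by 0.46. Bcat1 and Glul moved the same ways in DZ (0.65 ± 0.067 and -0.36 ± 0.033, adjusted p 0.00541 and 0.00382). In DZ, 4 genes of the list rose and 4 fell with all libraries, beside 6.63% and 5.23% of all genes tested. The calls of the genes that rose, Bcat1 among them, were lost without dKO DZ replicate 1. Fewer genes fell without any 1 DZ library. Of 17 tested genes that carry the amino acid signal to mTORC1, 2 rose (Seh1l, 0.30, and Mios, 0.21) and 2 fell (Sesn3, -0.33, and Rraga, -0.32) in LZ. Their median was -0.012, and the LZ shares of all genes tested were 18.4% higher and 12.7% lower. Without dKO LZ replicate 1, 0 of these rose, and without dKO LZ replicate 2 only 1 fell.

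**Figure D4:**
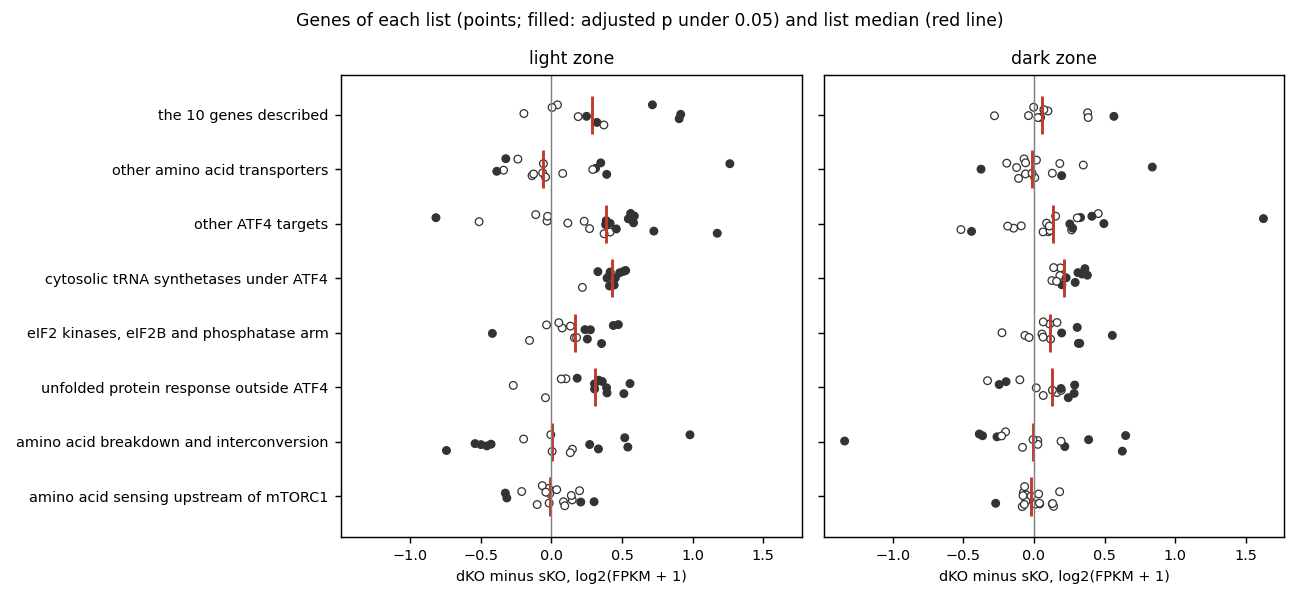
Difference dKO minus sKO of log2(FPKM + 1) for every tested gene of the 10 and of 7 related lists, in light zone (left) and dark zone (right) cells, with filled points past an adjusted p of 0.05 and a red line at each median. In LZ the tRNA synthetases lie close together around 0.43, whereas the breakdown and sensing lists centre near 0.

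Patterns were compared over the 8 libraries by the root mean square difference between profiles of log2(FPKM + 1), each centred on its own mean. This was done for the 6 genes whose group means spanned at least 0.5. Closest to Slc7a5 were Pprc1, a coactivator gene of mitochondrial biogenesis, the nucleolar gene Nop2 and the folate enzyme gene Mthfd1 (0.048, 0.049 and 0.053). Closest to Asns, but less alike, were the folate carrier gene Slc19a1, the pyrophosphatase gene Ppa1 and Ifrd2 (0.16, 0.17 and 0.17). Slc19a1 was at 5.69 and 5.70 FPKM in sKO LZ, 9.94 and 9.30 in dKO LZ and 2.55 to 3.60 in DZ libraries. For Slc3a2 the closest genes were Rab35, Creld2 and Mogs, and for Slc1a4 Syce2, Rrp15 and Pa2g4. For Trib3 they were Nup155, Ell2 and Psme3, and for Ddit3 the immediate early gene Ier2, Pisd and Nfkbiz (0.045 to 0.12 over these 12). The scale understates changes of the low-level genes Slc1a4 and Trib3, so their closest genes are not alike in ratio. In LZ, mean Slc1a4 went from 1.02 (sKO) to 2.78 FPKM (dKO) and mean Syce2 from 15.3 to 27.6.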

How the data were processed

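RNA of sorted donor germinal centre B cells was sequenced as 8 libraries in 4 groups of 2. The deposited table holds 1 FPKM value per gene symbol and library, per the file headers. The submitters' processing notes list mm9, TopHat2 2.0.8 and Cufflinks 2.1.1 but give neither their roles nor the annotation. Columns were matched to samples by title (0 unmatched), and 1 row of library codes was left out.

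Values were taken as log2(FPKM + 1). Genes that reached 1 FPKM in 2 or more libraries were fitted in limma 3.58.1 (R 4.3.3) as 4 group means, with a variance trend, 4 residual and 2.46 prior degrees of freedom, all 8 libraries in 1 fit, 2-sided tests and Benjamini-Hochberg adjustment over all 10610 genes in each contrast (threshold 0.05). Intervals are 95% intervals of that fit. The fit was tested on simulated data.

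The members, the 7 related lists and the rules were chosen with earlier results of these data known. Named were the 10 genes, up to 4 genes per list with the smallest p among those past the threshold without overlap between libraries, and the 3 genes most alike in pattern with at least 5 FPKM on average. Among the alternatives, each library was left out, and pseudocount, filter, scaling, variance trend, replicate block and the set of libraries were varied. List counts under these were added after the data were seen.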

Additional observations from a re-analysis of the deposited data

How the results depend on the processing

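The 5 genes that rose in LZ became 3 to 6 with 1 library left out (3 without dKO LZ replicate 1), the 1 in DZ became 0 or 1 (0 without dKO DZ replicate 1), and the 6 zone calls in sKO became 3 to 6 (3 without replicate 2 of either sKO group), and 3 with only the libraries compared. The cause was not tested. Replicate numbers were shared by all groups, and differences between replicates correlated at -0.108 to 0.124 between groups. The labels do not say whether equal numbers mark the same pool, and correlations from 2 libraries per group cannot settle it. With the replicate block, 6 of the 10 genes passed in LZ (Atf4 added, adjusted p = 0.0396, limma), 1 in DZ and 6 between zones in sKO, and the calls over all genes went from 3299 to 2994 in LZ and from 1258 to 881 in DZ. Of all LZ calls, 59% were higher in dKO as deposited, 45.5% with upper quartile scaling, 52.1% with median-ratio scaling and 50.3% with quantile normalization.

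Signs turned only for differences that had not passed. Slc1a5 in LZ was -0.01642 (upper quartile) and -0.06421 (quantile), over both zones -0.03756 (upper quartile), -0.02336 (median-ratio), -0.06321 (quantile) and -0.009106 (without small RNA genes), and -0.001996 (quantile) for the difference of the genotype effect between zones. Slc38a2 in LZ was -0.05381, -0.02655, -0.07772 and -0.01168 under the same 4 settings, and over both zones -0.001694 (upper quartile) and -0.01286 (quantile). Slc7a1 in DZ was 0.001148 without both sKO libraries numbered 1. With 1 library left out, Slc38a2 ranged from -0.0599 to 0.07048 in LZ, from -0.07875 to 0.2187 in DZ, from -0.03673 to 0.112 over both zones and from -0.2134 to 0.08404 for the difference of the genotype effect between zones. Slc7a1 ranged from -0.04706 to 0.04228 in DZ and Slc1a5 from -0.00968 to 0.01406 over both zones. Atf4 ranged from -0.01819 to 0.07519 in DZ and from -0.1637 to 0.02296 for LZ minus DZ in sKO. The difference of the genotype effect between zones ranged from -0.09443 to 0.2647 for Ddit3 and from -0.1294 to 0.1055 for Trib3. Of 1165 recomputed values of single genes, 433 with 1 library left out and 648 others kept their direction and their side of the threshold. Groups of 2 libraries limit the precision, and absolute depth is unknown.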

Other observations

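Of the 4 eIF2 kinase genes, Eif2ak3 and Eif2ak4 were lower in LZ than in DZ cells in both genotypes. Eif2ak3 (PERK) was at 34.0 and 30.5 FPKM in sKO LZ and 64.0 and 61.5 in sKO DZ (LZ minus DZ -0.94 ± 0.058, adjusted p = 0.000221, limma), and at 24.1 and 23.7 against 52.7 and 54.3 in dKO (-1.13 ± 0.058, adjusted p = 8.99e-05). Eif2ak4 (GCN2), the kinase that senses uncharged tRNA, was also lower in LZ in both genotypes (-0.44 ± 0.058 and -0.60 ± 0.058). Eif2ak1 (HRI) fell in sKO (-0.18 ± 0.050, adjusted p = 0.0383) and had -0.15 ± 0.050 in dKO (adjusted p = 0.0641), and Eif2ak2 (PKR) had -0.22 ± 0.096 and -0.30 ± 0.096 (adjusted p = 0.136 and 0.0554). Of 13 tested genes of the unfolded protein response outside ATF4, 11 rose and 0 fell in LZ over DZ in sKO (11 and 0 at an unadjusted p under 0.05, limma). In dKO, 10 rose and 0 fell (10 and 0). Of all genes tested, 15.2% rose and 16.1% fell in sKO, and 18% and 16.1% in dKO. The chaperone gene Hsp90b1 rose by 0.87 ± 0.033 in sKO and 1.10 ± 0.033 in dKO, and Calr by 0.58 ± 0.034 and 0.76 ± 0.034.

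Il4i1, which encodes a secreted amino acid oxidase, had the largest zone difference among the genes of the 7 related lists (3.17 ± 0.091 in sKO and 3.77 ± 0.091 in dKO). It was at 94.0 and 103 FPKM in sKO LZ, 56.1 and 61.1 in dKO LZ, 10.6 and 9.53 in sKO DZ and 3.09 and 3.67 in dKO DZ, so that dKO libraries were below sKO libraries in both zones.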
